A study of Mus musculus with 16 samples.

Results

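The 8 arrays described here, of 16 in the series, hold RNA of CD11b-positive cells isolated from mouse bone marrow. They were chosen by their titles, with 4 arrays of high-fat diet (HFD) and 4 of control diet, paired within 4 labelled genotypes: WT, STAT4-/-, STAT6-/- and HDC-/-. Mice of the HFD groups had eaten the diet for 3 months as a model of atherosclerosis, the control groups had a normal diet, and every pool is labelled male. Each array was hybridised with Cy3-labelled RNA from a pool of 5 mice, and no pool was measured again. The spread between the 4 pairs therefore mixes genotype, pool and array, and nothing in the labels says how the alleles were made or how old the mice were.

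CD11b, the alpha chain of the integrin CR3 encoded by Itgam, marks neutrophils, monocytes, macrophages and eosinophils, and marrow is where neutrophils, monocytes and B cells are made. STAT4 relays interleukin-12 signals, STAT6 relays interleukin-4 and interleukin-13 signals, and HDC is the only enzyme that forms histamine from histidine. In cells short of sterol, SREBP2, the protein of Srebf2, enters the nucleus and raises the genes of cholesterol synthesis and uptake, while the liver X receptors respond to sterol excess with genes of efflux and storage.

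Every level below is log2 of the background-subtracted spot signal less the 75th percentile of its array, so that 0 is the 75th percentile. A difference is HFD minus control in 1 genotype, less the median difference of that pair over all 27649 features tested. Those medians were -0.01 in the WT pair, 0.22 in STAT4-/-, -0.05 in STAT6-/- and 0.29 in HDC-/-, which is why a printed difference departs by that much from the printed levels. A mean difference is over the 4 pairs, with its SD over pairs. Adjusted p-values come from limma with genotype as a term, run before the medians were subtracted.

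The arrays had 60.4% to 85.6% of probes well above background and a median signal of 74.0 to 168.2, with no saturated spot. By the file headers, WT and STAT4-/- arrays share a scan date and STAT6-/- and HDC-/- arrays share another, so both diets of a genotype lie together. Itgam was bright on all 8 arrays, at 4.60 on the HDC-/- control array and 5.24 to 5.90 on the others. That HDC-/- control array stood apart, with a mean correlation of 0.947 with the other marrow arrays against 0.970 to 0.976 for each of them. Y-linked genes averaged -5.72 on the STAT4-/- control array and -7.94 on the HDC-/- control array, against -0.76 to 0.08 on the other 6, and Xist was highest on the same control arrays (-4.35 and -3.70, against -8.32 to -5.58). In the STAT4-/- and HDC-/- pairs diet and this difference between the pools cannot be told apart. Stat4 read 0.27 and 2.60 on the control and HFD arrays labelled STAT4-/-, and -1.03 to 0.18 on the other 6, so the reading goes against that label, and STAT4-/- below means the library labelled so. The labels do not say which part of a gene was deleted, and a probe outside it checks nothing. The brightest of 3 Stat6 probes read 2.90 and 2.53 on the STAT6-/- arrays, inside the range of 2.19 to 4 on the other 6, while the dimmest read -4.52 and -5.29 there, below the -4.28 to -2.54 of the other 6. Hdc was low on both HDC-/- arrays (1.38 and 1.77, against 5.24 to 5.64 on the 5 others with a usable spot).

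No feature passed the limma test of diet over the 4 pairs: 0 of 27649 (0%) had an adjusted p under 0.05, the smallest was 0.505, and 1608 had an unadjusted p under 0.05, where chance alone gives 1382. The count was also 0 in a fit over all 16 arrays. It was 32 when the background was corrected with normexp, 28 of them lower on HFD. In that limma fit 993 features had an unadjusted p under 0.05, below the chance count. The count of calls was 123 when only the WT and STAT6-/- pairs entered, a fit with 1 residual degree of freedom in which all features share one variance. Across the array, 1801 features (6.51%) were higher on HFD in 4 of 4 pairs and 1583 (5.73%) were lower in 4 of 4. All 4 HFD arrays lay below all 4 control arrays for 304 features (1.1%) and above them for 398 (1.44%). The lists below are read against those shares, and "in 4 of 4 pairs" is a description and not a test, since an exact sign-flip test over 4 pairs cannot give a two-sided p below 0.125.

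Genes of cholesterol synthesis and SREBP2 targets were higher on HFD more often than features at large. Of 27 members, all measured, 7 were higher in 4 of 4 pairs (25.9%) and 0 were lower in 4 of 4, none passed the test, and 25 had a mean difference above 0. The median over members was 0.36, against -0.01 over all features. The mean over members was 0.11 in the WT pair, 0.03 in STAT4-/-, 0.34 in STAT6-/- and 1.25 in HDC-/-, so the HDC-/- pair carries most of it. Lower on HFD were 12 of 27 members in WT, 16 in STAT4-/-, 5 in STAT6-/- and 2 in HDC-/-. In STAT4-/- the median over members was -0.15, below 0 although the mean was above it. With only the WT and STAT6-/- pairs, whose pools match in Y-linked signal, 10 of 27 were higher in both (37%) and 0 were lower in both, against 18.5% of all features in each direction. Without the HDC-/- pair, 7 of 27 were higher in the 3 others (25.9%), against 11.3% of all features. The 7 members higher in 4 of 4 pairs are in both of these counts by definition.

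Insig1, whose protein holds the SREBP complex in the endoplasmic reticulum and is itself an SREBP target, led the list. It read -2.64, -1.97, -2.87 and -1.89 on the control arrays (WT, STAT4-/-, STAT6-/- and HDC-/-, the order used throughout) and -0.73, -0.15, -2.52 and 0.18 on the HFD arrays. Each HFD array was above its own control, but the groups overlap, because the STAT6-/- HFD array lay below 2 of the control arrays. The differences were 1.91, 1.59, 0.40 and 1.78, with a mean of 1.42 ± 0.70 (SD, n = 4 pairs), 2.68-fold on the linear scale, and a limma adjusted p of 0.717. Nsdhl, a sterol dehydrogenase of the late pathway, read -1.34, -1.39, -1.03 and -1.38 on control and -0.53, -0.13, -0.44 and 0.71 on HFD. All 4 HFD arrays were above all 4 control arrays, and the mean difference was 1.07 ± 0.51 (SD, n = 4 pairs). Its other probe gave -0.23, -0.71, 1.44 and 1.49, so the direction in WT and STAT4-/- depends on the probe.

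Fdft1, squalene synthase, the first enzyme committed to sterol, read -0.42, -0.39, 0.18 and -0.98 on control and 0.08, 0.89, 0.66 and 1.84 on HFD. Each pair was higher on HFD and the groups overlap at the WT HFD and STAT6-/- control arrays. The mean difference was 1.16 ± 0.95 (SD, n = 4 pairs), and its other, dimmer probe was above background on 2 of 8 arrays and is not read. Srebf2 read 0.09, -0.20, 0.64 and -0.53 on control and 0.44, 1.06, 0.76 and 1.73 on HFD, with a mean difference of 0.88 ± 0.82 (SD, n = 4 pairs). Its other probe gave 0.62, 0.76, -0.34 and 1.24, so the STAT6-/- pair has no settled direction. Mvd, mevalonate decarboxylase, was higher on all 4 HFD arrays (-1.41 to -0.22) than on any control array (-2.70 to -1.42), with a mean difference of 0.80 ± 0.96 (SD, n = 4 pairs). The reductase gene Dhcr7 (0.48 ± 0.20, SD, n = 4 pairs) and the cyclase gene Lss (0.45 ± 0.41) complete the 7, both with low signal and overlapping groups.

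Other genes of the pathway did not share a direction across pairs. Fdps, farnesyl diphosphate synthase, differed by -0.63, -0.17, 1.47 and 1.73, and Sqle, squalene epoxidase, by -0.59, -0.12, 1.44 and 1.6. In these the WT and STAT4-/- pairs were below 0 and the STAT6-/- and HDC-/- pairs above it, which is also how the arrays divide by scan date. That split held for 10 of the 27 members (37%), against 7.49% of all features, and the reverse split held for 0 of 27, against 6.58%. Scan date and genotype cannot be told apart here.

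**Figure D1:**
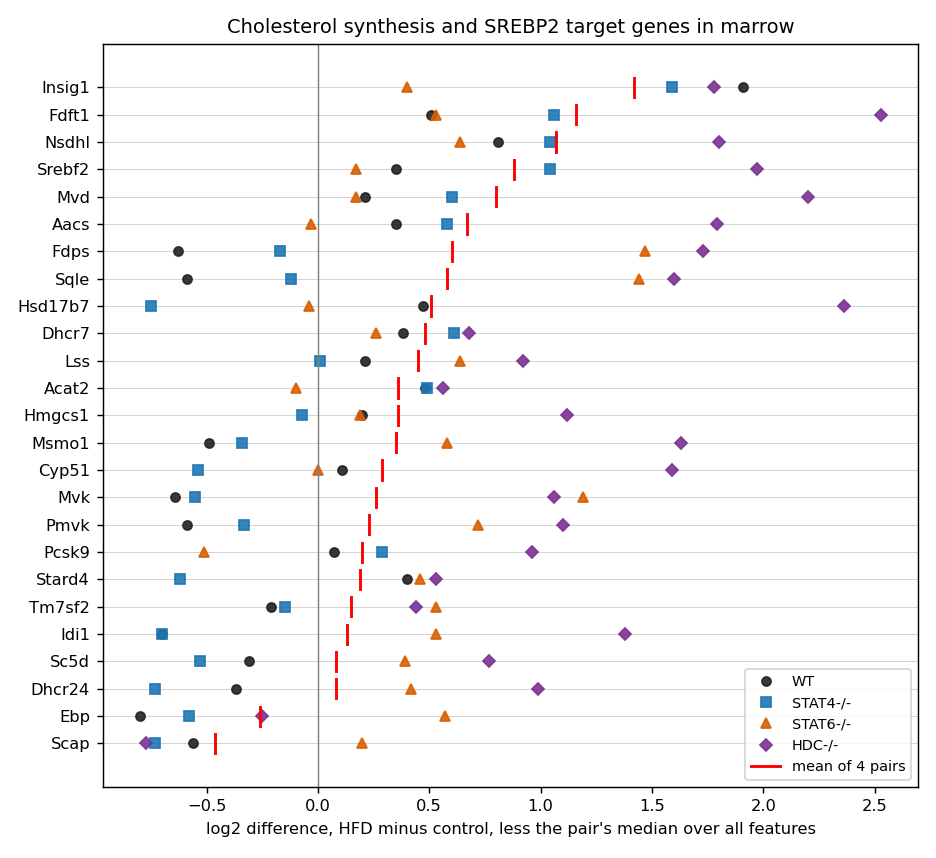
Log2 difference between HFD and control for 25 of the 27 cholesterol synthesis and SREBP2 target genes, with 1 point for each genotype pair and a red bar at the mean of 4 pairs. Insig1, Fdft1 and Nsdhl stand at the top with 4 points above 0, while Sqle spans from -0.59 in WT to 1.6 in HDC-/-.

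The promoters of this list were read from RefSeq (GRCm38.p6), over the 250 bases before each annotated start, because several members were higher together. Of the 27 genes, 19 have an entry in the sequence table used. The sterol response element, searched as TCACNCCAC on both strands, was in 1 of the 19 genes (5.26%), Hmgcs1, 137 bases before the start, against 1.22% of 27025 genes. Hmgcs1, a synthase early in the pathway, differed by 0.20, -0.07, 0.19 and 1.12. The CCAAT box, searched as CCAAT on both strands, was in 16 of 19 (84.2%), against 37.5% of all genes. NF-Y, which binds that box, is a known partner of SREBP at sterol promoters. A match is a run of letters and not a measured site. Of the 7 members that were higher in 4 of 4 pairs, 3 are shown 5′ to 3′ with the CCAAT box, in either orientation, in capitals, at chr5:28071162-28071411 (plus strand), chrX:72918271-72918520 (plus strand) and chr15:82147019-82147268 (plus strand).
Insig1: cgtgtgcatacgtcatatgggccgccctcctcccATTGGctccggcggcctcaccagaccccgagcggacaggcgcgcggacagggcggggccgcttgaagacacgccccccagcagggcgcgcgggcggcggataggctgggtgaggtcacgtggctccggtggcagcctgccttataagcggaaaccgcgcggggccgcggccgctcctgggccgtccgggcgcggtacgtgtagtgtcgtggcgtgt
Nsdhl: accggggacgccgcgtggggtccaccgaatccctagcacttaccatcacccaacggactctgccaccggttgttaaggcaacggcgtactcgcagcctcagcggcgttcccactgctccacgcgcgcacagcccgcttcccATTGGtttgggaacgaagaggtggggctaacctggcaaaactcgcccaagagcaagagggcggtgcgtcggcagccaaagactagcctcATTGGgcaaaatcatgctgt
Srebf2: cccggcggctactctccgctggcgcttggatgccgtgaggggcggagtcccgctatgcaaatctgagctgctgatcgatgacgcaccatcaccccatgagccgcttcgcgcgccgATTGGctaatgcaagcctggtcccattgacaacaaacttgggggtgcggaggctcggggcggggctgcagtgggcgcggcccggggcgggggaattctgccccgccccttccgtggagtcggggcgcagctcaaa
The single box of Insig1 begins 216 bases before the start and that of Srebf2 135 bases before it, while Nsdhl has 2.

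Sterol storage and phospholipid genes of the liver X receptor list were divided. Of 18 measured members, 4 were higher in 4 of 4 pairs (22.2%) and 0 were lower, and the list median was 0.05. Soat1, which esterifies cholesterol for storage, read 1.71, 1.56, 1.15 and 1.3 on control and 2.20, 2.11, 1.80 and 2.42 on HFD. All 4 HFD arrays were above all 4 control arrays, by a mean of 0.59 ± 0.22 (SD, n = 4 pairs, limma adjusted p 0.717). Lpcat3, which remodels membrane phospholipid, was likewise higher on every HFD array, by 0.46 ± 0.23 (SD, n = 4 pairs). The HDL receptor gene Scarb1 (0.45 ± 0.35) and Srebf1 (0.30 ± 0.27) were higher in 4 of 4 pairs with overlapping groups. With normexp, none of the 18 kept one direction upward in all pairs. The efflux transporter genes Abca1 (0.52, -0.86, -0.25 and -2.71) and Abcg1 (0.61, 0.21, -0.12 and -1.25) were higher in WT and lower in STAT6-/- and HDC-/-.

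Fatty acid synthesis and desaturation genes included 5 of 23 that were lower in 4 of 4 pairs (21.7%) and 0 that were higher. With normexp 1 of 23 was lower in all pairs (4.35%), against 2.94% of all features. Scd1, the desaturase that makes oleate, read -1.43, 0.05, -1.08 and 0.94 on control and -2.05, -1.65, -1.68 and -2.32 on HFD. All 4 HFD arrays were below all 4 control arrays, with a mean difference of -1.66 ± 1.41 (SD, n = 4 pairs, limma adjusted p 0.717). The elongase gene Elovl6 differed by -0.70, -1.05, -0.06 and -3.25. Scd2, a related desaturase, differed the other way in 3 pairs (0.87, -0.10, 0.69 and 0.81). In both Scd1 and Elovl6 the HDC-/- pair had the largest difference.

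**Figure D2:**
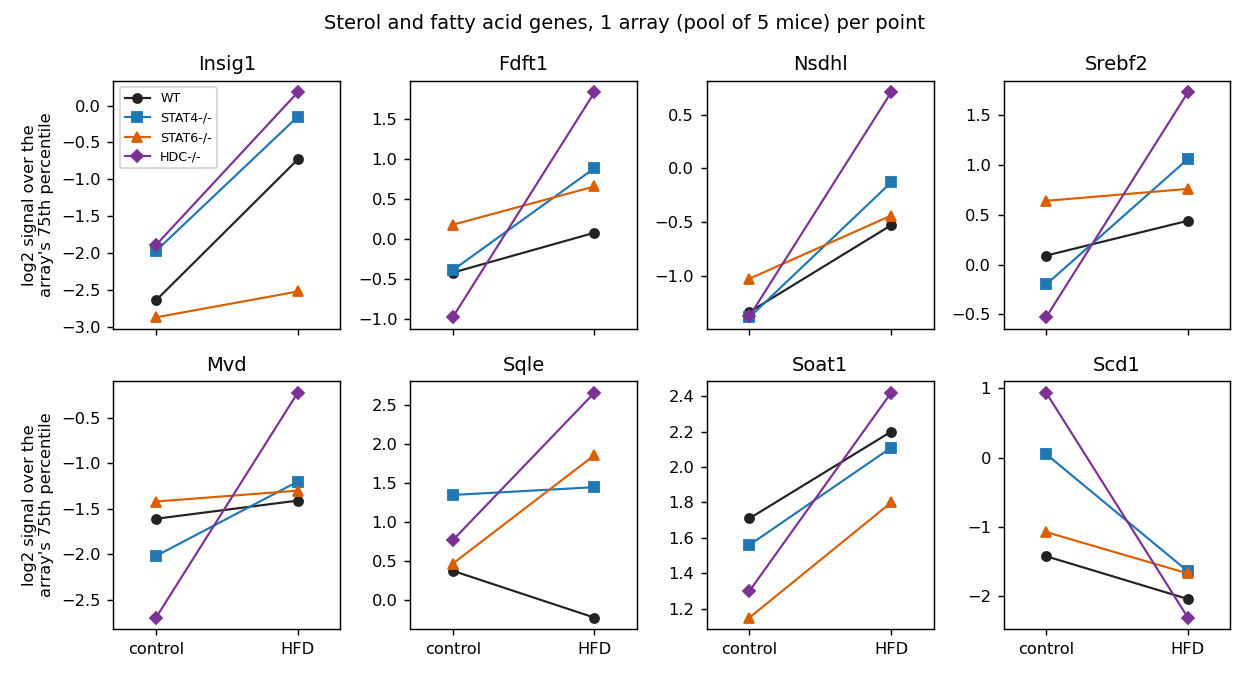
Level of 8 sterol and fatty acid genes on each array, in log2 units where 0 is the array's own 75th percentile, and a line per genotype from control to HFD. The HFD end is above the control end in 4 of 4 genotypes for Insig1, Fdft1, Nsdhl, Srebf2, Mvd and Soat1 and below it for Scd1, while Sqle goes from 0.38 to -0.22 in WT and from 0.47 to 1.86 in STAT6-/-.

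Genes of B-cell precursors had a list mean below 0 in each of the 4 pairs. Of 16 pro-B and pre-B markers, 10 were lower in 4 of 4 pairs (62.5%, against 5.73% of all features), 0 were higher, and the median over members was -2.12. The mean level of the list ran from -2.04 to 0.79 on control arrays and from -3.70 to -2.14 on HFD arrays. The mean difference was -0.45 in WT, -1.96 in STAT4-/-, -0.74 in STAT6-/- and -4.78 in HDC-/-. With only the WT and STAT6-/- pairs, 10 of 16 were lower in both and 0 higher, against 18.5% of all features. Without the HDC-/- pair, 10 of 16 were lower in the 3 others, against 8.98%. Members lower in 4 of 4 pairs are lower in any part of those pairs, so neither count could be below 10. In these pools fewer B-lineage cells among the CD11b-positive cells and less RNA per cell cannot be told apart, and their proportion was not measured.

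Vpreb1 and Vpreb3 encode parts of the surrogate light chain and its assembly, which precede the mature B-cell receptor. Vpreb3 read 1.86, 3.51, 1.37 and 4.68 on control and 0.79, -0.10, 0.69 and -1.70 on HFD. No HFD array reached any control array, and the differences were -1.07, -3.83, -0.63 and -6.67 (mean -3.05 ± 2.80, SD, n = 4 pairs, limma adjusted p 0.717). Vpreb1 read -0.24, 0.94, -0.62 and 3.30 on control and -1.02, -1.04, -1.70 and -3.60 on HFD, again with no overlap. Rag1, the recombinase that cuts receptor genes, was above background on all arrays but STAT6-/- HFD, so the STAT6-/- pair gives no size, and it differed by -0.37 in WT, -3.96 in STAT4-/- and -6.73 in HDC-/-. The receptor of interleukin-7, Il7r, differed by -0.83, -3.06, -0.74 and -5.71, and the scaffold gene Akap12 by -0.78, -3.36, -1.36 and -6.34. Igll1, the other surrogate chain, was an exception in WT (0.30, -0.71, -1.67 and -6.55).

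Markers of mature B cells also had a list mean below 0 in each of the 4 pairs. Of 16, 7 were lower in 4 of 4 pairs (43.8%) and 0 were higher, with a list median of -1.40 and list means of -0.62, -1.73, -0.48 and -3.27. Blnk, the adaptor below the receptor, read 1.67, 3.04, 1.28 and 3.65 on control and 0.33, -0.08, 0.59 and -1.26 on HFD, with no overlap. Ebf1, Cd79b, Ms4a1 and Cd72 were lower in 4 of 4 pairs too, by means of -2.77, -2.33, -2.17 and -3.11, and Fcmr was lower in 3 and higher by 0.31 in STAT6-/-. The HDC-/- control array had the highest level of Vpreb1, Vpreb3 and Blnk, and the STAT4-/- control array the next highest.

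With normexp, 32 features passed the limma test. In that limma fit 993 features had an unadjusted p under 0.05, fewer than the 1382 that chance alone gives. The variance shared over features weighed 53.1 degrees of freedom there, against 4.71 in the main fit. In the WT pair normexp gave 124 features 2-fold higher and 4560 lower, against 541 and 483 in the main setting. These calls therefore depend on the setting. The lower ones include Vpreb3 (-3.17), Cd72 (-2.73), Bach2 (-2.71), Blnk (-2.70), Vpreb1 (-2.63), Akap12 (-2.62), Cd79b (-2.48) and Ebf1 (-2.19), at adjusted p of 0.00186 to 0.0433. Of the 42 genes of the precursor, mature B and plasma lists, 10 were among the 32. The Y-linked genes Ddx3y and Eif2s3y were among the 4 higher ones. In the main setting the Y-linked list differed by 4.74 in STAT4-/- and 7.44 in HDC-/-, against -0.03 in WT and -0.23 in STAT6-/-. With only the WT and STAT6-/- pairs none of those 42 was called.

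The E-box CAGGTG, which E2A proteins bind in B-cell precursors, was searched on both strands in the 250 bases before the start. It was in 5 of 13 genes of the precursor list with an entry (38.5%) and in 7 of 11 of the mature list (63.6%), against 19.4% of all genes. The EBF core CCCNNGGG was in 2 of 13 (15.4%) and 2 of 11 (18.2%), against 13.4% of all genes. The lists share Ebf1, and no measure of binding was made. One promoter of each list is shown with the E-box, in either orientation, in capitals, at chr16:16869256-16869505 (minus strand) and chr19:40994222-40994471 (minus strand).
Vpreb1: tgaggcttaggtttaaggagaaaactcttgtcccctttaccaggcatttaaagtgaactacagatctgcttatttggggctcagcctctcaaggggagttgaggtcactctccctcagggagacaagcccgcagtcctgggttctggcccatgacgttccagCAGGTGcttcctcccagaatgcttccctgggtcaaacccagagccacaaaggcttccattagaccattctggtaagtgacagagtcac
Blnk: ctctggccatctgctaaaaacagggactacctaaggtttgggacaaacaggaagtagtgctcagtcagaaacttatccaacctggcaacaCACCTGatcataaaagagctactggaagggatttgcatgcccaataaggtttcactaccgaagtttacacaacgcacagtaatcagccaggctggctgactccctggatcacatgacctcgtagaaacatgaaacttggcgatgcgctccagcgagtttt
The box begins 88 bases before the start of Vpreb1 and 160 bases before that of Blnk.

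**Figure D3:**
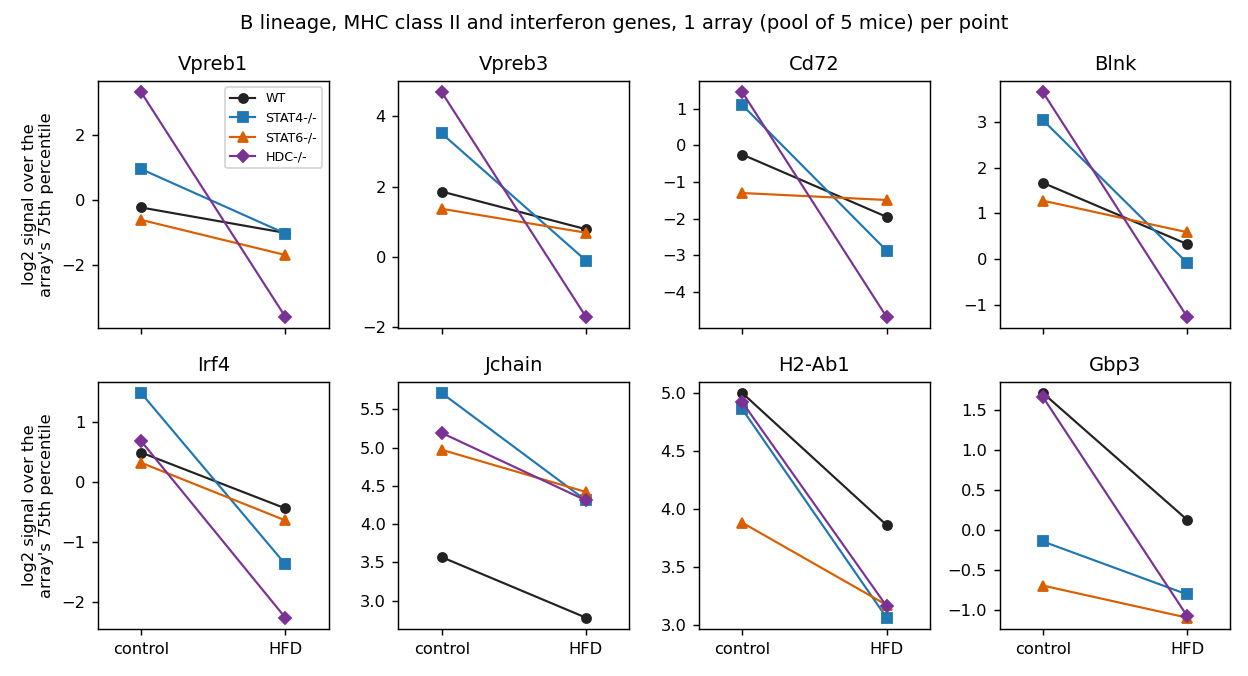
Level of 8 B-lineage, MHC class II and interferon-gamma target genes on each array, in log2 units where 0 is the array's own 75th percentile, and a line per genotype from control to HFD. The HFD end lies below the control end on every line, and the steepest in Vpreb1 is HDC-/-, from 3.30 to -3.60.

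Plasma cell genes were lower in 4 of 4 pairs for 7 of 11 members (63.6%), and 0 were higher. Irf4, a transcription factor of plasma cells and of some dendritic cells, read 0.49, 1.48, 0.32 and 0.68 on control and -0.44, -1.37, -0.64 and -2.26 on HFD. The groups do not overlap and the mean difference was -2.04 ± 1.29 (SD, n = 4 pairs). Jchain, which links secreted IgM and IgA, read 3.57, 5.71, 4.97 and 5.19 on control and 2.78, 4.31, 4.42 and 4.31 on HFD. It was lower in each pair, by 1.02 ± 0.49 in the mean (SD, n = 4 pairs), but the groups overlap because both WT arrays were low. Slamf7 (-2) and Mzb1 (-1.47) were lower in 4 of 4 as well.

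MHC class II genes were lower in 4 of 4 pairs for 8 of 15 members (53.3%) and higher for 0, with a median of -0.75. The count was 5 of 15 (33.3%) with quantile normalization and with normexp. H2-Ab1, a class II beta chain, read 5.00, 4.86, 3.88 and 4.92 on control and 3.86, 3.06, 3.17 and 3.16 on HFD. All 4 HFD arrays were below all 4 control arrays, and the differences were -1.14, -2.02, -0.66 and -2.05 (mean -1.47 ± 0.68, SD, n = 4 pairs, limma adjusted p 0.717). H2-Eb1 differed by a mean of -1.32 ± 0.76 and Cd74, the invariant chain, by -0.74 ± 0.61 (SD, n = 4 pairs each). H2-Ob, a class II gene largely of B cells, had the widest spread (-1.30, -2.96, -0.18 and -4.91). Ciita, the transactivator of the class II genes, had low signal and did not share their direction (0.09, 0.32, -0.23 and 0.45). Conventional dendritic cell markers were lower in 4 of 4 pairs for 4 of 11 (36.4%), and Irf4 is one of them. B-cell marker lists moved with these genes in the same pairs, and their part in the class II difference was not tested.

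Interferon-gamma targets were lower in 4 of 4 pairs for 7 of 20 members (35%) and higher for 0. With only the WT and STAT6-/- pairs, 13 of 20 were lower in both (65%), the 7 among them by definition, and 0 were higher. The list means were -0.65, 0.05, -0.41 and -1.51, so the STAT4-/- pair stood at 0.05 while the others were below 0. Gbp3, a guanylate-binding GTPase, read 1.71, -0.14, -0.69 and 1.66 on control and 0.13, -0.80, -1.09 and -1.07 on HFD. Each pair was lower and the groups overlap, since control levels of STAT4-/- and STAT6-/- were below the WT HFD level. Cd274, which encodes PD-L1, differed by -1.07, -0.17, -0.91 and -2.09, and Iigp1 by -0.39, -0.88, -0.54 and -2.96. Nos2, the inducible nitric oxide synthase, was on the other side in 3 pairs (-0.55, 2.11, 0.62 and 2.73). In a separate list, of homing and egress receptors, 3 of 22 members were lower in 4 of 4 pairs (13.6%) and 1 was higher, with a median of -0.09. Its member Ccr7, the receptor that leads dendritic cells and lymphocytes to lymph nodes, was the only 1 without overlap between diets. Ccr7 was lower on all 4 HFD arrays than on any control array, by 1.66 ± 0.96 in the mean (SD, n = 4 pairs).

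**Figure D4:**
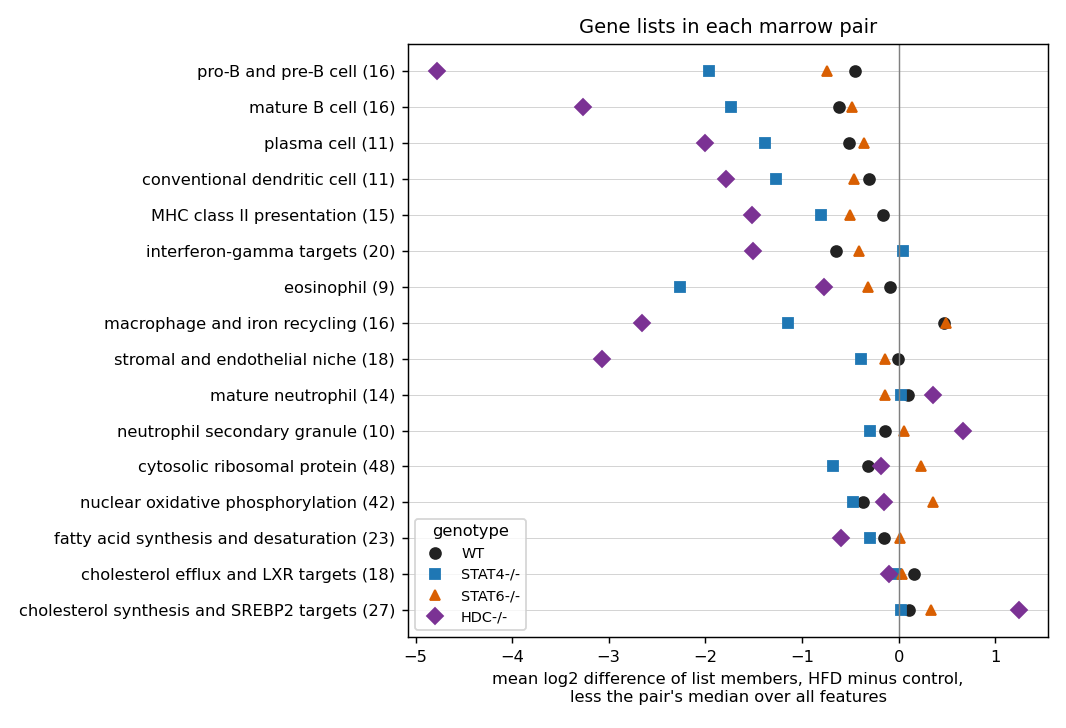
Mean log2 difference, HFD minus control, over the members of 16 gene lists, with 1 point for each genotype pair and the number of members tested in brackets. The B-lineage, dendritic cell and class II lists lie below 0 in 4 of 4 pairs, with HDC-/- farthest out. The mean of the cholesterol synthesis list lies above 0 in 4 of 4, but only at 0.03 in STAT4-/-, where 16 of 27 members were lower.

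Macrophage genes were lower on HFD in the STAT4-/- and HDC-/- pairs and higher in the WT and STAT6-/- pairs. The macrophage and iron recycling list had no member with one direction in 4 of 4 pairs, and its means were 0.47 in WT, -1.14 in STAT4-/-, 0.49 in STAT6-/- and -2.66 in HDC-/-. With only the WT and STAT6-/- pairs, whose pools match in Y-linked signal, 10 of 16 were higher in both (62.5%) and 0 were lower in both, against 18.5% of all features. Cd5l, a secreted macrophage protein, read -3.46, -2.43, -4.77 and 0.69 on control and -3.02, -4.72, -3.90 and -5.61 on HFD. The HDC-/- control array was far above the 7 others. Spic, the factor of red pulp and marrow macrophages, gave 0.08, -2.35, 1.49 and -4.52, and the mannose receptor gene Mrc1 gave 0.88, -2, 0.89 and -3.82. Cxcl12, the niche chemokine, read -3.15, -3.19, -1.53 and 2.42 on control and -2.91, -1.97, -0.86 and -3.66 on HFD. Its difference was above 0 in 3 pairs and -6.37 in HDC-/-, where the control array was high. The stromal list means were -0.01, -0.39, -0.14 and -3.07, and its medians were -0.05, -0.09, -0.01 and -3.35, so that list stood apart from 0 in HDC-/-, where 16 of 18 members were lower.

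Erythroid, natural killer and T-cell markers, of lineages outside the CD11b-positive gate or at its edge, had their largest difference in HDC-/- too. The erythroid list had means of -0.36, -0.30, -0.27 and -2.29, with 5 of 17 lower in 4 of 4 pairs (29.4%), and the natural killer list -0.41, -1.18, 0.20 and -3.28. Klf1, the master factor of red cells, read -1.86, -0.63, -0.64 and 1.43 on control and -2.84, -0.50, -1.07 and -2.07 on HFD, and Car2, a carbonic anhydrase, read 0.52, 2.42, 1.97 and 3.91 on control and 0.13, 2.14, 1.53 and 0.46 on HFD. In both genes the HDC-/- control array was the highest of the 8. The T-cell receptor chain gene Cd3g differed by -0.16, -0.94, -0.26 and -3.84, Il2rb by -0.62, -1.11, -0.22 and -3.74, and the progenitor factor gene Gfi1b by -0.90, -1.82, -0.34 and -4.43. The part of these other cells in the differences of the HDC-/- pair was not tested.

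Monocyte markers differed by less. The classical monocyte list had means of 0.16, -0.62, -0.11 and -0.34, with 3 of 13 members lower in 4 of 4 pairs (23.1%) and 0 higher. That count was 1 of 13 with quantile normalization and 0 of 13 with normexp. Csf1r, the receptor that monocytes and macrophages need, read 4.28, 4.30, 4.34 and 4.25 on control and 4.08, 3.98, 4.21 and 3.79 on HFD. All 4 HFD arrays lay below all 4 control arrays, but the differences were small (-0.19, -0.55, -0.08 and -0.75). Irf8, which steers progenitors to monocytes and dendritic cells, differed by -0.48, -0.81, -0.09 and -1.88, and the dendritic cell peptidase gene Dpp4 by -0.71, -2.57, -0.37 and -4.41.

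Basophil and mast cell markers were lower in 4 of 4 pairs for 5 of 12 members (41.7%) and higher for 1, or 3 and 0 with quantile normalization. Mcpt4, a mast cell protease, read -2.65, -2.62, -3.30 and -4.17 on control and -5.02, -3.99, -3.94 and -4.78 on HFD. The groups overlap through the low HDC-/- control array, and the WT pair had the largest difference (-2.36). The protease gene Cpa3 differed by -0.81, -0.36, -0.25 and -2.81. Il4, the cytokine gene that basophils, eosinophils and T cells use, read 0.21 and -3.15 in the STAT4-/- pair and differed there by -3.58, against -0.24 to -0.61 in the 3 others.

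Eosinophil genes were lower chiefly in the STAT4-/- pair. The list mean went from 3.25 to 1.21 there, from 2.59 to 2.22 in STAT6-/-, from 1.03 to 0.54 in HDC-/- and from 0.71 to 0.61 in WT. Ear6, an eosinophil ribonuclease, read 2.48, 5.63, 4.70 and 2.11 on control and 2.00, 2.88, 4.22 and 1.97 on HFD. Both STAT pairs began high, and the differences were -0.48, -2.97, -0.43 and -0.43. Of 9 members 5 were lower in 4 of 4 pairs (55.6%), among them the peroxidase gene Epx (-0.05, -1.21, -0.55 and -0.55) and Siglecf (-0.25, -1.77, -0.10 and -0.33). With normexp the count was 3 of 9 (33.3%). The near-identical ribonuclease genes of this family can share probes.

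Neutrophil genes, those of the main CD11b-positive cell of marrow, had no common direction across pairs. The mature neutrophil list had means of 0.10, 0.02, -0.14 and 0.36, with 0 of 14 members higher and 2 lower in 4 of 4 pairs (14.3%). S100a8, a subunit of calprotectin, read 6.82, 6.52, 6.56 and 5.77 on control and 6.61, 6.25, 6.66 and 6.12 on HFD. The groups overlap and the differences were -0.21, -0.50, 0.14 and 0.06. S100a9 differed by -0.11, -0.62, 0.05 and 0.08, and lactoferrin, Ltf, by -0.11, -0.41, -0.18 and 0.25. The primary granule list had means of -0.47, -0.28, 0.42 and 0.04, with 7 of 8 members lower in WT and 1 of 8 lower in STAT6-/-. The secondary granule list stood at 0.67 in HDC-/-, where the control array had the lowest level of 4.82 against 5.58 to 6.03 on the other 7.

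Ribosomal protein genes and nuclear genes of oxidative phosphorylation had no common direction across pairs. The 48 ribosomal genes had list means of -0.32, -0.68, 0.23 and -0.18, and the 42 oxidative phosphorylation genes had -0.37, -0.47, 0.36 and -0.15. In neither list did any member keep one direction in 4 of 4 pairs. WT and STAT4-/- were below 0 and STAT6-/- above 0 in both lists, and HDC-/- was below 0.

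The list of inflammatory cytokine and inflammasome genes had no common direction in the HDC-/- pair, with 12 of 26 members lower on HFD and a mean of 0.24, and of the chemokine ligands 12 of 21 were lower, with a mean of -0.08. Some genes, picked after their values were seen, were far higher on HFD there. Tnf read 3.27, 1.81, 3.73 and -0.22 on control and 3.64, 3.27, 3.34 and 3.55 on HFD, so the HFD arrays were close together and the HDC-/- control array was low. Its differences were 0.38, 1.24, -0.34 and 3.49. Maff, a small Maf factor, read -4.07 on the HDC-/- control array and 0.86 to 2.40 on the 7 others. Saa3, an acute-phase gene, differed by -1.64, 1.91, 0.92 and 5.13, and the neutrophil chemokine gene Cxcl2 by 0.57, 1.33, -0.36 and 3.93. In all 4 genes the HDC-/- control array had the lowest level of the 8. For Saa3 the HDC-/- HFD array, at -0.37, was also the highest of the 8, so that difference rests on both arrays.

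Type I interferon genes were lower in 4 of 4 pairs for 3 of 25 members (12%), with list means of -0.48, 0.09, -0.25 and -1.93. Ifi44, an interferon-induced gene, differed by -0.40, -2.12, -0.98 and -3.61. Zbp1, a sensor of Z-form nucleic acid, read 2.44, -0.67, -0.19 and 1.33 on control and 0.93, -0.69, -0.42 and 0.72 on HFD, so the WT arrays were the highest of each diet. Heat shock chaperones were lower in 4 of 4 pairs for 4 of 21 (19%), or 2 of 21 with normexp, and Hsph1 (-0.69, -0.74, -0.70 and -3.19) and the endoplasmic chaperone gene Hsp90b1 (-0.45, -0.83, -0.01 and -1.07) had no overlap between diets. Of 25 immediate early genes, 2 were higher and 2 lower in 4 of 4 pairs, and 20 had a mean difference above 0. Their list means were 0.01, 0.44, -0.22 and 1.12. The HDC-/- control array had the lowest list level, at 0.82 against 2.22 to 3.13 on the others. Ier3 was higher in 4 of 4 pairs (0.36, 1.16, 0.08 and 1.35), as was the hexokinase gene Hk3 in the glycolysis list (0.27, 0.76, 0.02 and 1.46).

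Across all features, the genes with the steadiest differences were named by the size of their smallest pair, among those above background on all 8 arrays. On the higher side the 12 were led by Chn1 (0.76, 0.76, 1.27 and 3.45) and Nsdhl. Smad1, which relays bone morphogenetic protein signals, was the most even (0.87, 0.82, 0.63 and 0.62, mean 0.73 ± 0.13, SD, n = 4 pairs). It read -2.85, -2.54, -2.24 and -1.72 on control and -1.99, -1.50, -1.66 and -0.82 on HFD, so the groups overlap, and its other probe had a mean of 0.11. Chac2, a glutathione-degrading enzyme (0.69 ± 0.17), the ubiquitin-conjugating enzyme gene Ube2h (0.59 ± 0.21) and Cd200r1, an inhibitory myeloid receptor (0.69 ± 0.31), were also among them (SD, n = 4 pairs each). Ube2h was the one of these 3 with all HFD arrays above all control arrays.

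On the lower side the 12 were led by Mybpc2, a myosin-binding protein gene (-1.28, -2.54, -1.20 and -2.82), and Scml4 (-1.01, -1.18, -1.32 and -3.49). Both had all HFD arrays below all control arrays, as did 11 of the 12, the exception being Gm18852. Of all features 304 (1.1%) did so, but the 12 were picked by these same differences, which favours such separation. The transcription factor genes Bach2, Foxo1 and Irf4 were among the rest. Bach2 read -0.66, 1.09, -0.85 and 1.35 on control and -1.67, -3.06, -1.80 and -4.45 on HFD, and Foxo1 read 0.84, 2.02, 0.51 and 1.18 on control and -0.03, -0.50, -0.40 and -1.24 on HFD. Neither gene's groups overlap. Foxo1 had differences of -0.86, -2.74, -0.85 and -2.71, and both of its probes gave that direction in 4 of 4 pairs. Tubb2b (-2.40), Myl4 (-2.81), Vpreb2 (-2.60), Akap12 and Gramd3 (-1.75) were in the same 12, and limma gave each of the 24 named genes an adjusted p of 0.717.

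The 4 pairs did not resemble each other evenly. The STAT4-/- and HDC-/- pairs had the widest differences, with 1092 features (4.37%) at least 2-fold higher and 2121 (8.49%) at least 2-fold lower in STAT4-/-, and 2435 (12.6%) and 3864 (19.9%) in HDC-/-. The WT pair had 541 (2.09%) and 483 (1.87%), and the STAT6-/- pair 355 (1.84%) and 494 (2.55%). Of the features lower by 2-fold, 1148 were so in both STAT4-/- and HDC-/-, which is 60% of those in STAT4-/- and 29.9% of those in HDC-/-, counted where both pairs were above background. The WT and STAT6-/- pairs ran against each other, with a Pearson correlation of -0.38 over 19284 features that share the arrays of each pair. They had 17 features lower and 6 higher by 2-fold in both, and 109 past 2-fold in opposite directions.

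Some genes with the largest differences in WT also had large differences of opposite sign in STAT6-/-. R3hdm4 read -2.08, -0.63, 1.13 and 1.68 on control and 3.22, 3.33, -2.01 and 3.45 on HFD. The WT control, STAT4-/- control and STAT6-/- HFD arrays were low and the others high, and the differences were 5.31, 3.74, -3.09 and 1.48. Sephs2, which makes selenophosphate, differed by 4.98, 2.80, -3.11 and -0.08. Pacc1, an acid-sensitive chloride channel, went the other way, at -4.94, -1.42, 3.84 and -1.79, while its other probe gave 0.01, -0.85, -0.43 and -2.72. In STAT4-/- the largest differences included Pam, an enzyme that amidates peptides, which read -4.64 on control and 0.57 on HFD, and Serpinb2, a protease inhibitor, which read 1.80 on control and -2.84 on HFD. In HDC-/- they included the secretory kinase gene Fam20c (-2.85 and 2.33) and the lipid carrier gene Fabp4 (1.88 and -4.56). Pam lay between -4.64 and -2.88 on the 7 other marrow arrays and Fabp4 between -4.56 and -2.01, so each marrow difference rests on 1 array. The spleen pair of the same genotype differed in the same direction, by 4.65 for Pam in STAT4-/- and by -5.17 for Fabp4 in HDC-/-. Slc7a11, the cystine transporter, was higher in WT and STAT4-/- (0.88 and 0.27) and lower in STAT6-/- and HDC-/- (-2.53 and -2.01).

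**Figure D5:**
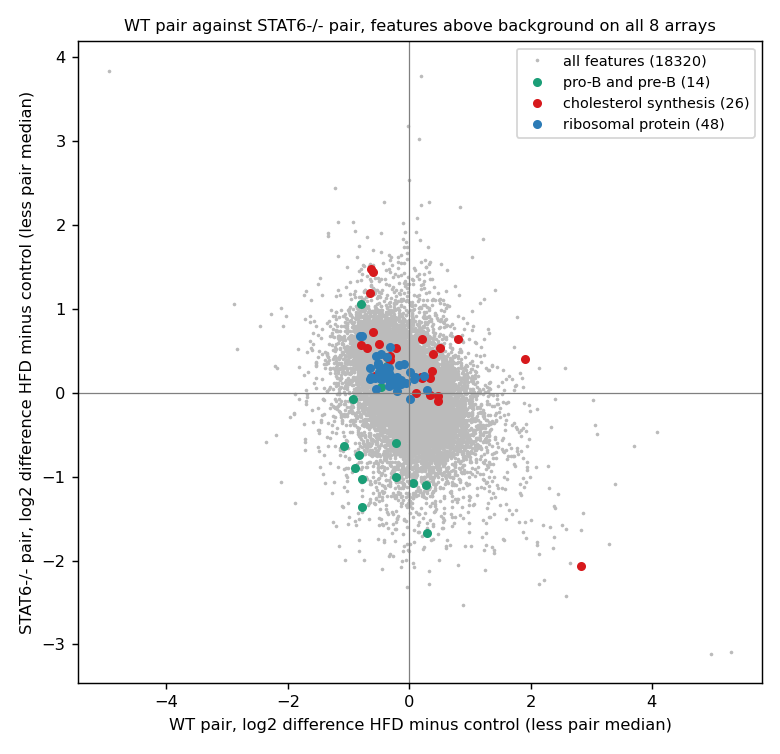
Log2 difference between HFD and control in the WT pair (x axis) and the STAT6-/- pair (y axis) for 18320 features above background on all 8 arrays, each less its pair median. The cloud slopes downward, pro-B and pre-B genes lie mostly below 0 in both pairs, and ribosomal protein genes lie mostly left of 0 and above 0.

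Set against the spleen arrays, the diet difference in marrow was not told apart for any single feature. The limma interaction of tissue and diet called 0 of 28783 features, with 316 at an unadjusted p under 0.05, fewer than chance alone gives at that threshold. The 0 calls therefore do not show that the tissues respond alike. In spleen the cholesterol synthesis list had means of -0.35, -0.07, 0.03 and 0.35 in the 4 pairs and the precursor B list 0.33, -0.39, -0.18 and -0.21, and the difference of these lists between tissues was not tested.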

How the data were processed

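The arrays are Agilent one-colour arrays. The authors deposited scanner output of Feature Extraction 11.0.1.1, per the file headers, whose processed signal is a spot intensity after background subtraction, with probe annotation on mm9. The labels give no further normalization. Symbols came from RefSeq accessions (GRCm38.p6) for 27234 of 39429 probes (69.1%).

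Computed here, the log2 of each deposited intensity had the 75th percentile of its array subtracted. Flagged probes (162) were left out, the brightest probe stood for a gene, and features well above background on at least 2 of 8 arrays were tested. limma 3.58.1 in R 4.3.3 was fitted with genotype and diet as terms, with Benjamini-Hochberg adjustment over 27649 features. The genotype number pairs the arrays by label, since both diets carry the same genotype. The p-values set the mean diet difference against its spread over the 4 genotype pairs, which mixes genotype, pool and array. limma draws that spread toward a variance shared over features, with 4.71 prior and 3 residual degrees of freedom. Each genotype and diet has 1 pool of 5 mice. The code was tested on simulated data. The normexp alternative used an offset of 50 on the spot and background signals the files hold.

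Named genes are, on each side, the 12 with the largest smallest-pair difference among symbols above background on 8 arrays, up to 4 leading members of each list, and the 5 with the largest difference in each pair; other list members are named for their role. The arrays, lists and rules were chosen with earlier results of these data known, and the promoter motifs after the values were seen. Some list members are counted but not reported here by name.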

Additional observations from a re-analysis of the deposited data

Results flagged for a closer look

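In groups of 4 arrays, 3 list levels of 94 groups looked at had 1 array far from the other 3 by Dixon's ratio, where chance alone gives about 1 in 20. The basophil and mast cell list stood at -1.47 on the STAT4-/- HFD array, with the next array at -1.96. The MHC class I processing list stood at 3.55 on the WT HFD array, with the next at 2.98. The list of Fc gamma receptors and NADPH oxidase stood at 4.05 on the STAT4-/- HFD array, below the next at 4.33.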

How the results depend on the processing

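No feature passed the limma test under median or quantile scaling, either filter or the mean of probes. None passed with no replicate block (0 calls), scan date as a term, a trend prior or all 16 arrays, or with any 1 pair left out (0 to 0 calls). Normexp gave 32 calls and the WT and STAT6-/- pairs alone gave 123. Features higher in all pairs numbered 947 with normexp, 1172 when above background on all 8 arrays, 5115 in the WT and STAT6-/- pairs, and 2459 to 6041 with 1 pair left out, the highest without STAT6-/-. Features lower in all pairs numbered 813, 1050 and 5115 in the same settings, and 2405 to 6223 with 1 pair left out, again the highest without STAT6-/-. Fewer pairs leave fewer directions to match. In each setting the pair medians were taken again over the features of that setting. With the medians over all 27649 features, those above background on all 8 arrays gave 940 higher and 1169 lower, so which side has more depends on the median. At 2-fold, normexp gave 124 higher and 4560 lower in WT, 324 higher in STAT4-/-, 76 lower in STAT6-/- and 1608 higher in HDC-/-. Without a filter these were 1154 higher and 1141 lower in WT, 2733 higher in STAT4-/-, 1317 higher and 3070 lower in STAT6-/-, and 6303 higher in HDC-/-. The cause was not tested. Features at an unadjusted p under 0.05 numbered 3800 without the STAT6-/- pair, 868 without STAT4-/- and 1052 without HDC-/-. No gene whose mean difference is given reversed under any setting run, but several of the settings could not have shown a reversal. A gene with the same direction in every pair keeps it when pairs are left out. Its mean difference is the same by construction without a replicate block, with scan date and with a trend prior. With normexp, 12 of the genes whose mean difference is given became called. Single-pair values of genes moved 47 times by more than the SD of all features in that pair. Counted once for each list and setting, list medians stayed within their spread 594 times and moved 8 times. That spread is the SD of the list mean over the 4 pairs. It was 1.98 for the pro-B and pre-B list, so a large shift there still counts as staying. The medians are the same by construction without a replicate block, with scan date and with a trend prior. Dim probes limit the values, since those near background vary most.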
